A study of Mus musculus with 32 samples.

Results

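The comparison set ventricles of mice in cardiac failure against ventricles of wild type mice. Failure samples were those titled as AT1 transgenic with cardiac failure, and wild type samples those titled as controls. Each was hybridised to 1 of 2 Affymetrix array types, called here the first and the second, which carry different probe sets. On each type there were 3 failure arrays and 5 wild type arrays, so 16 of the series' 32 samples enter the comparison, and 8 arrays a type from transgenic mice in cardiac hypertrophy were fitted with them. The transgene is described as cardiac specific. The failure and the hypertrophy mice both carry it and the wild type mice, labelled as having a normal cardiac phenotype, do not, so that a difference between failure and wild type can belong to the transgene, to the disease or to both. AT1 is left as an abbreviation in the labels. In work on the heart it is the usual short name of the angiotensin II type 1 receptor. The labels name neither the promoter that drives the transgene nor the age, sex or strain of the mice. Nor is it stated that each sample is a mouse of its own, and the p-values therefore rest on a spread between samples that may in part be technical. All genes with a probe set that reached the median of its array in at least 3 arrays of the type were tested, which gave 9440 genes, 855 of them on both types.

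The angiotensin II type 1 receptor is a G protein coupled receptor through which angiotensin II constricts vessels, drives aldosterone release and, in the heart, promotes growth of muscle cells and deposition of matrix. A failing ventricle is known for a return of genes of the fetal heart, such as the natriuretic peptides, skeletal alpha-actin and beta-myosin heavy chain. It is also known for fibrosis, in which fibroblasts lay down collagens and other matrix proteins, and for a lower expression of the genes of fatty acid oxidation and of the respiratory chain, from which the adult heart takes most of its energy.

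Signals are the deposited intensities on a linear scale, and changes are log2 differences, failure minus wild type, given with their standard error (SE). Adjusted p-values come from limma with Benjamini-Hochberg adjustment over all probe sets of the array type, and a probe set with an adjusted p under 0.05 is called. All 6 cardiomyocyte markers were tested. Myh6, Myl2, Tnnt2, Tnni3 and Actc1 lay above the 99.8th percentile of probe sets on every array, and Ryr2 at or above the 77.6th. Median signals were 91.8 to 121 on the first type and 69.3 to 80.6 on the second. Some arrays stood apart. The ratio of the 5′ to the 3′ Actb control was 0.765 to 1.10 in failure and 0.545 to 0.752 in wild type on the first type, and 0.852 to 1.22 in failure against 0.654 to 1.002 in wild type on the second. The same ratio of Gapdh was 0.468 and 0.0487 in hypertrophy samples 6 and 7 of the first type, against 0.806 to 0.955 in wild type. Xist, the noncoding RNA that silences an X chromosome, had signals of 160, 129 and 14.3 in failure samples 1 to 3 on the first type. In wild type samples 1 to 5 it had 134, 144, 15.2, 15.5 and 4.98. The Y-linked Eif2s3y was dim and ran opposite, at 4.94, 4.83 and 43.7 in failure and 2.48, 7.88, 39.7, 30.3 and 40.3 in wild type. The Y-linked Kdm5d, at 44.0, 41.0 and 31.1 in failure, did not. By Xist and Eif2s3y both groups may be mixed in sex. Whether sex bears on how failure sample 3 differs from samples 1 and 2 was not tested. The labels do not say that a sample number marks the same animal on both types. On the second type Xist was dim, at 34.5, 3.12 and 51.5 in failure and 1 to 39.4 in wild type, around the lower limit of 27.5 used there. Over the 855 genes tested on both types, the same number gave the highest correlation between types for 10 of 16 arrays. In failure it was 0.122, 0.0811 and 0.141, against at most 0.0225 with another number. Counts with and without these arrays follow below. In this tissue, more cells of a type and more RNA per cell cannot be told apart.

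Few probe sets differed past the threshold, and most of those were higher in failure. On the first type 10 of 6980 probe sets (0.143%) were called, 9 higher (0.129%) and 1 lower (0.0143%). On the second type 25 of 7004 (0.357%) were called, 20 higher (0.286%) and 5 lower (0.0714%). The change was positive for 58.5% and 61% of the probe sets tested, but for 49.3% and 48.7% under quantile normalisation and 39.6% and 43.8% with each array scaled to a common median, so that the majority direction turns with the scaling. All 35 had failure arrays that did not overlap with the wild type arrays. Over all probe sets tested, the 3 failure arrays lay above the 5 wild type arrays for 8.58% and below them for 4.67% on the first type, and for 9.77% and 4.01% on the second. The higher and lower calls depended on the scaling. With each array scaled to a common median 15 calls were higher and 18 lower on the first type, against 19 and 21 on the second. A fit of the 8 failure and wild type arrays alone, in which the median SE was 0.127 instead of 0.166 on the first type, called 122 probe sets there (1.75%) and 193 on the second (2.76%), or 1.37% of genes as higher and 0.625% as lower, among them the 10 and the 25. Without failure sample 1 the counts were 0 and 5 and without failure sample 2 they were 1 and 4, whereas without failure sample 3 they were 51 and 24. Without any 1 wild type array they were 1 to 3 and 6 to 14. Without hypertrophy samples 6 and 7 they were 34 and 70. Without hypertrophy sample 1 the counts were 30 and 79, and without sample 7 alone they were 28 and 57. On the second type they were 12 without hypertrophy sample 4 and 13 without sample 6. With the Actb ratio as a covariate, 8 of the 10 and 17 of the 25 kept their calls among 42 and 81 calls.

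**Figure D1:**
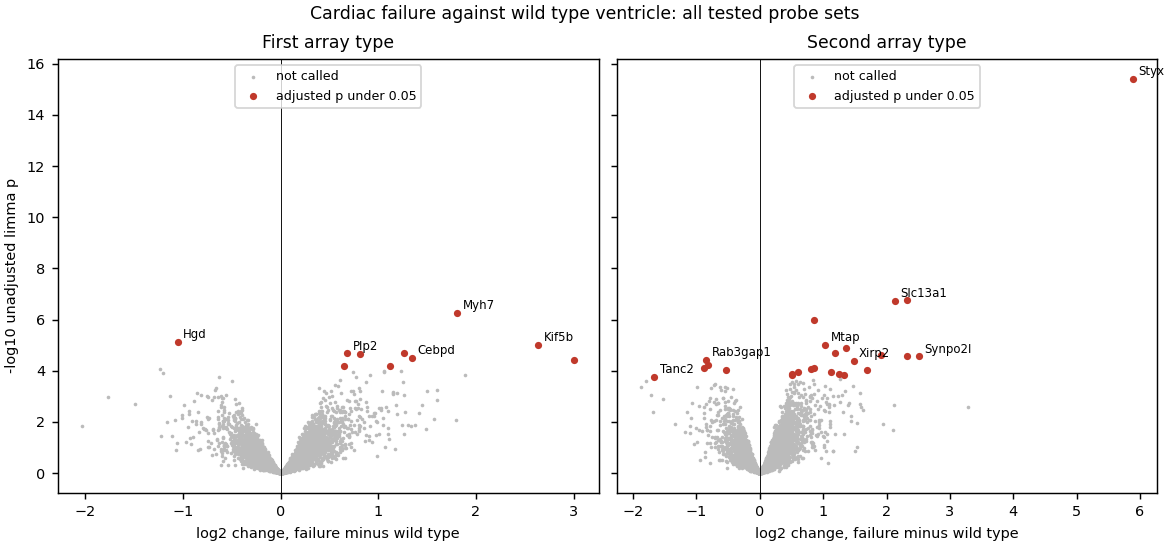
Log2 change of failure minus wild type (horizontal) against the −log10 of the unadjusted limma p (vertical) for the 6980 probe sets of the first array type and the 7004 of the second, with called probe sets in red. Styx stands alone at 5.89 on the second type, and of the 35 called probe sets 29 lie right of 0.

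The markers of the fetal and stressed heart had the largest median difference of the 53 lists examined. Of 15 tested genes of this list, 12 had a positive change. The median was 0.77 on the log2 scale, against 0.04 over all 9440 genes. Failure arrays lay above all wild type arrays for 8 of the 15 (8.7% of all genes tested) and below them for none (4.51%). One of the 15 was called, Xirp2, where 0.233% of all genes were. The same shares over all genes, 8.7% above, 4.51% below and 0.233% called, apply to each list that follows.

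Myh7 encodes beta-myosin heavy chain, the slow fetal isoform of the ventricle. Its dimmer probe set had signals of 4348, 3228 and 3130 in failure samples 1 to 3, against 1306, 946, 938, 1437 and 619 in wild type samples 1 to 5. The lowest failure array was more than double the highest wild type array. Myh7 rose by 1.81 ± 0.23, or 3.51-fold (adjusted p = 0.00374). Hypertrophy arrays, at 1361 to 2364 with a median of 1743, overlapped with wild type but not with failure. The brighter Myh7 probe set, which stands for the gene in the list, had 10072, 9116 and 8905 in failure and 5329 to 6624 in wild type. These groups did not overlap either, and the change of 0.61 ± 0.13 was not called with all arrays (adjusted p = 0.0752) but was in the fit of 8 arrays (0.0241). Both probe sets belong to a class, marked f in its name, whose probes match a family of similar sequences, so that their signals cannot be assigned to Myh7 alone.

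Xirp2, a Xin repeat protein that binds actin at the intercalated disc, had 3406, 2341 and 1781 in failure and 846, 939, 806, 972 and 784 in wild type. All 3 failure arrays were clearly above the wild type arrays, and hypertrophy, at 639 to 1804, overlapped with both. It rose by 1.48 ± 0.27 (adjusted p = 0.0237). A further Xirp2 probe set had 1235, 638 and 715 in failure against 167 to 233 in wild type, a change of 2.12 ± 0.59 that was not called (adjusted p = 0.117). Its relative Xirp1 had 734, 1036 and 958 in failure and 451 to 668 in wild type, a change of 0.77 ± 0.21 (adjusted p = 0.155).

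The natriuretic peptides, hormones of the stretched heart that promote sodium excretion, were high in failure but also variable in wild type. Nppa had 3475, 3943 and 4420 in failure and 2538, 929, 1904, 2688 and 968 in wild type. Nppb had 4125, 4893 and 3845 in failure and 2868, 1451, 2609, 3055 and 1145 in wild type. In both genes the same pair of wild type arrays, samples 2 and 5, was lowest, and no wild type array reached the lowest failure array. The changes of 1.26 ± 0.54 for Nppa (adjusted p = 0.41) and 1.04 ± 0.38 for Nppb (adjusted p = 0.319) were not called.

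Ankrd1, a stretch-responsive repeat protein of the sarcomere and nucleus, had 7529, 6671 and 5395 in failure and 2285 to 4281 in wild type, with a change of 0.89 ± 0.26 (adjusted p = 0.218). Acta1, skeletal alpha-actin, had 4665, 3490 and 1757 in failure and 694 to 1694 in wild type. Its lowest failure array, sample 3, was just above the highest wild type array, and the change was 1.34 ± 0.49 (adjusted p = 0.326). Hypertrophy arrays reached 5055 for Acta1 and 3982 for Nppa, so that some of them were as high as failure. Myl7, the atrial regulatory light chain, had 506, 300 and 750 in failure and 299, 112, 179, 156 and 113 in wild type. Failure sample 2 was at the level of wild type sample 1, and the change was 1.60 ± 0.42 (adjusted p = 0.149).

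**Figure D2:**
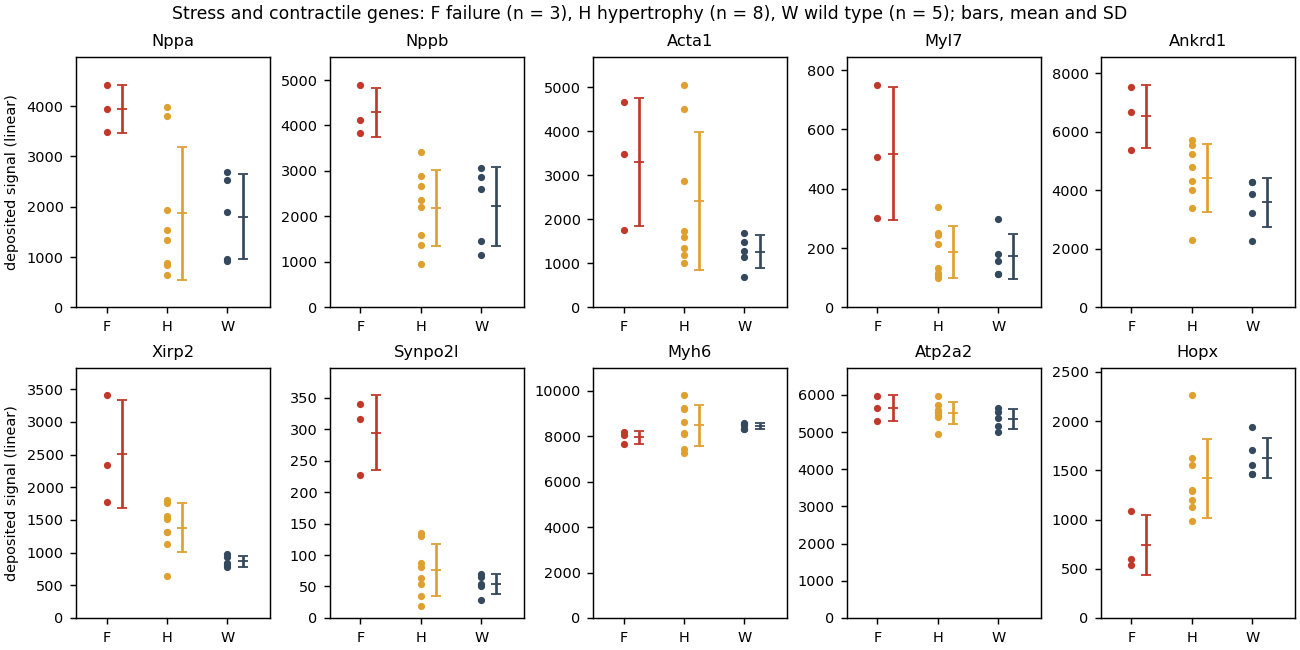
Deposited signal on a linear scale in each array (points), with the mean and SD beside them, for failure (F, n = 3), hypertrophy (H, n = 8) and wild type (W, n = 5). The failure arrays of Nppa, at 3475 to 4420, lie above the wild type arrays, at 929 to 2688, while those of Myh6 and Atp2a2 lie at nearly the wild type level and those of Hopx, at 534 to 1088, below it, at 1463 to 1944.

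The sequences before the start sites of these stress genes are shown because the 8 genes lay on the same side of wild type on these arrays. RefSeq promoters of GRCm38.p6 were matched for 7 of them by symbol, all but Xirp1. The 250 bases before the start were searched on both strands for MCAT (CATTCC), the element bound by TEAD factors, and for CArG, the element bound by serum response factor. MCAT was in 5 of the 7, where 12.6% of 32851 promoters hold it, and CArG in 2, where 1.47% do. These 7 were picked because their groups did not overlap. Over the whole list, 6 of the 14 members with a promoter in the table held MCAT and 3 held CArG. The 5 with a match lie at chr14:54994627-54994876 on the minus strand (Myh7, the first of 2 entries), chr4:147985650-147985899 on the plus strand (Nppb), chr8:123894776-123895025 on the minus strand (Acta1), chr19:36119845-36120094 on the minus strand (Ankrd1) and chr11:5898783-5899032 on the minus strand (Myl7). They are written 5′ to 3′ along the gene, with matches in capitals: 6 letters for MCAT, read on either strand, and 10 for CArG, and no match overlaps another.
Myh7: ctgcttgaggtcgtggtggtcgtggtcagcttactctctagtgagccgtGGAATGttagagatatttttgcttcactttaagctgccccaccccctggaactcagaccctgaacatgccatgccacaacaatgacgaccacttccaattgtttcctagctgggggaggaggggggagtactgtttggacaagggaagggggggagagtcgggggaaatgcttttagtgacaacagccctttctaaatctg
Nppb: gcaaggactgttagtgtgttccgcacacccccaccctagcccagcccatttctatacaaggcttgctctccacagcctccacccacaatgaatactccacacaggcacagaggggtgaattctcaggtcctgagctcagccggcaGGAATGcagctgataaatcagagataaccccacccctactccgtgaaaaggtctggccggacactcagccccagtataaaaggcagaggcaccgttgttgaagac
Acta1: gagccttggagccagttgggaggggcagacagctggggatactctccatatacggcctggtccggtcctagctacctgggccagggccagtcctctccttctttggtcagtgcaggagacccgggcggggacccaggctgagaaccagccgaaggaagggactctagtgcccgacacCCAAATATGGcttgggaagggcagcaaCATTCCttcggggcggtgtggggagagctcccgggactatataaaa
Ankrd1: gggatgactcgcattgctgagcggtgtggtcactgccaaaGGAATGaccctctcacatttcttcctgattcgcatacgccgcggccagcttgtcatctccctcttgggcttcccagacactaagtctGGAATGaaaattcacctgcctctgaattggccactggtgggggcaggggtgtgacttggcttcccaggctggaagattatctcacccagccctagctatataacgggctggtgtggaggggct
Myl7: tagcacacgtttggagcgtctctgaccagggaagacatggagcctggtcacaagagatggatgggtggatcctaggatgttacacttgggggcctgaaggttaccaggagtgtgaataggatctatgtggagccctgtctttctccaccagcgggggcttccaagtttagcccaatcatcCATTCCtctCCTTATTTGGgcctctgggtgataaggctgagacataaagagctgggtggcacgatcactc
Acta1 and Myl7 hold both elements, and Ankrd1 holds MCAT at 2 places. Nppa and Xirp2 held neither in this window. The letters TATAAA were in Nppa, Nppb and Acta1, and in 12.4% of all promoters. A match is a description of the letters and no sign of binding.

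Of 29 genes of the sarcomere tested, 1 was called, Synpo2l. Failure lay above wild type for 8 (8.7% of all genes tested) and below for 2 (4.51%), and the median was 0.16. Synpo2l, a Z-disc protein that binds alpha-actinin and filamin, had 316, 339 and 227 in failure and 69.9, 53.2, 50.0, 64.9 and 28.8 in wild type. Every failure array was over 3 times the highest wild type array, and the change was 2.51 ± 0.44 (adjusted p = 0.019). Hypertrophy ranged from 19.5 to 135, below all failure arrays, but failure was not called against it (2.11, adjusted p = 0.0786). Its partner Flnc, filamin C, had 306, 261 and 255 in failure and 147 to 191 in wild type (0.71 ± 0.17, adjusted p = 0.0892), and was called in the fit of 8 arrays (0.0216). The M-band proteins Myom1 and Myom2 had changes of 0.58 ± 0.20 (adjusted p = 0.279) and 0.84 ± 0.27 (0.262), in both cases with failure above wild type. Sorbs2, a Z-disc adaptor outside this list, had 253, 240 and 322 in failure and 77.1 to 103 in wild type (1.57 ± 0.38, adjusted p = 0.0834). Tnni3, cardiac troponin I, had 5261, 5293 and 5940 in failure against 6373 to 7371 in wild type (−0.34 ± 0.13, adjusted p = 0.335).

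The adult alpha-myosin gene and the calcium pump gene, whose lower expression is a textbook feature of failure, differed little. Myh6 had 8204, 7643 and 8038 in failure and 8316 to 8590 in wild type. Although the groups did not overlap, the change was −0.09 ± 0.11 (adjusted p = 0.837). Atp2a2, the calcium pump of the sarcoplasmic reticulum, had 5980, 5658 and 5296 in failure and 4996 to 5642 in wild type (0.08 ± 0.09, adjusted p = 0.829), a sign that turns under quantile normalisation (−0.0061) and median scaling (−0.017). The Atp2a2 probe set of the second type had a negative change that was not called, and its sign turned with the Actb covariate (0.090). No gene of calcium cycling was called among 24 tested. There failure lay above wild type for 3 and below for 1, where 8.7% and 4.51% of all genes did. The 1 below was Hrc, the histidine-rich calcium binding protein of the sarcoplasmic reticulum. It had 1127, 1314 and 1441 in failure and 1728 to 2127 in wild type (−0.51 ± 0.19, adjusted p = 0.326). Among 22 ion channel and gap junction genes none was called. The sodium channel subunit Scn4b had 105, 189 and 175 in failure against 190 to 337 in wild type (−0.75 ± 0.34, adjusted p = 0.385).

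In the renin-angiotensin system 1 of 14 tested genes was called. Agtrap, which binds the angiotensin receptor and favours its internalisation, had 177, 219 and 139 in failure and 111, 92.1, 104, 106 and 87.9 in wild type. It rose by 0.81 ± 0.14 on the first type (adjusted p = 0.0263). Hypertrophy, at 115 to 158, was also above wild type. On the second type its other probe set had 76.3, 61.3 and 73.9 in failure against 81.7 to 106 in wild type, the opposite direction (−0.37 ± 0.16, adjusted p = 0.336), so that the 2 probe sets disagreed. The endogenous receptor gene Agtr1a had 164, 210 and 240 in failure and 207 to 272 in wild type, which overlapped (−0.27 ± 0.17, adjusted p = 0.563), and Agtr1b had no tested probe set. Failure lay below wild type for 3 genes, none of them called. Cma1, mast cell chymase, had 2957, 3776 and 3483 in failure and 4056 to 4258 in wild type (−0.29 ± 0.11, adjusted p = 0.337). The aminopeptidase Rnpep had a change of −0.23 ± 0.10 (adjusted p = 0.412), and Hsd11b2, which inactivates glucocorticoid at the mineralocorticoid receptor, −0.30 ± 0.13 (adjusted p = 0.417).

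Of 13 genes of natriuretic peptide, endothelin and cGMP signalling failure lay above wild type for 4, and 11 changes were positive, with a median of 0.22. None was called with limma. Corin, the protease that activates the natriuretic peptides, had 580, 508 and 498 in failure and 485, 335, 180, 152 and 308 in wild type (0.98 ± 0.34, adjusted p = 0.279). Among 38 genes of adrenergic and G protein signalling failure lay above wild type for 2 and below for 1, shares below those over all genes. One of the 2 was Grk5, the receptor kinase, with 221, 270 and 207 in failure and 115 to 193 in wild type (0.63 ± 0.21, adjusted p = 0.279).

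For Styx, Slc13a1 and Med28, as for Agtrap on the first type, the hypertrophy arrays did not overlap with wild type but did with failure. Styx, a pseudophosphatase that binds phosphorylated proteins, had 1954, 2229 and 1065 in failure and 31.0, 1, 8.37, 4.03 and 21.7 in wild type, with hypertrophy at 1580 to 2413. Values below the 20th percentile of the type, 27.5, were raised to it, which touched 4 of the 5 wild type arrays, so Styx was at least 59.2-fold higher in failure (log2 change 5.89, adjusted p = 2.7e-12). Slc13a1, which carries sulfate with sodium and is best known from the kidney, had 1018, 1289 and 709 in failure and 192, 214, 244, 283 and 192 in wild type, with hypertrophy at 689 to 1503. It rose by 2.13 ± 0.25 (adjusted p = 0.000430). Med28, a subunit of the Mediator complex, had 165, 169 and 202 in failure and 286, 379, 250, 319 and 343 in wild type, with hypertrophy at 137 to 215. It fell by 0.81 on the log2 scale (SE 0.15, adjusted p = 0.0324). Its probe set on the first type had a change of −0.09 ± 0.11, with groups that overlapped (adjusted p = 0.829). Failure minus hypertrophy was −0.20 for Styx, −0.08 for Slc13a1 and 0.09 for Med28 (adjusted p of 0.81, 0.94 and 0.88). A p of this size does not show that the transgenic groups are alike.

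Against hypertrophy, failure was called for 2 of 7004 probe sets on the second type (0.0286%), and for 0 of 6980 on the first in limma, where 702 had an unadjusted p under 0.05 (10.1%). Both called genes had also been called against wild type. Ralgapa2, a catalytic subunit of a complex that turns off Ral GTPases, had 366, 324 and 257 in failure, 66.0 to 146 in hypertrophy and 83.9, 53.6, 57.4, 93.2 and 39.7 in wild type. It rose by 2.32 ± 0.27 against wild type (adjusted p = 0.000430) and by 1.55 ± 0.25 against hypertrophy (adjusted p = 0.0441). Mtap, which recycles methylthioadenosine to methionine, had 323, 281 and 300 in failure, 116 to 195 in hypertrophy and 165, 117, 154, 154 and 151 in wild type. It rose by 1.03 ± 0.17 against wild type (adjusted p = 0.0136) and by 0.93 ± 0.15 against hypertrophy (0.0441). For both genes all failure arrays lay above all other arrays. The calls against hypertrophy were lost in a fit of those 2 groups alone, without any 1 failure sample and without hypertrophy samples 6 and 7. They were also lost with the Actb or Xist covariate and with adjustment over both types. In these settings 0 to 1 probe sets were called. Leaving out hypertrophy sample 3, 4, 6 or 8 alone, or wild type sample 1, 2, 3 or 4 alone, gave 0 calls.

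**Figure D3:**
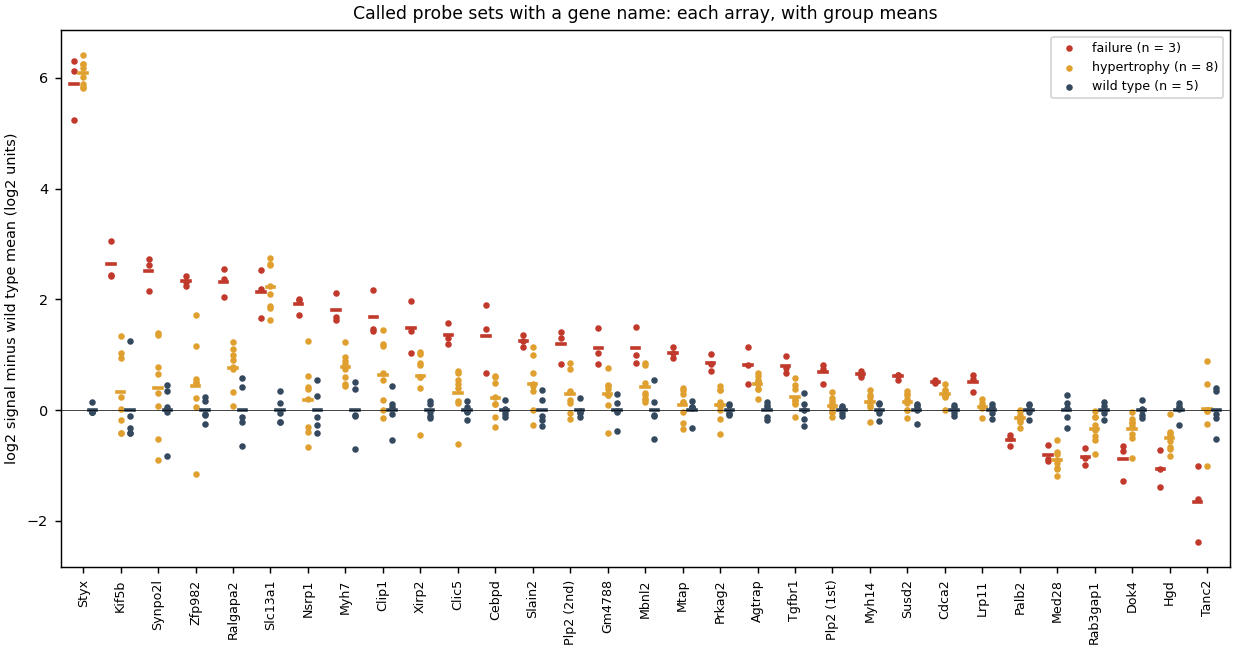
Log2 signal minus the wild type mean of the same probe set (vertical) for the 31 called probe sets with a gene name (horizontal), with each failure (red), hypertrophy (orange) and wild type (blue) array as a point and each group mean as a bar. The hypertrophy arrays of Styx, Slc13a1 and Med28 lie with the failure arrays, while for Ralgapa2 and Mtap they lie nearer to wild type.

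Kif5b, the heavy chain of the transport motor kinesin, had 286, 435 and 281 in failure and 48.8, 38.0, 42.0, 38.2 and 126 in wild type. Wild type sample 5 stood above the others but below every failure array. Kif5b rose by 2.64 ± 0.43 (adjusted p = 0.0225), with 2 wild type arrays at the lower limit of 39.5. Its probe set on the second type had 297, 298 and 386 in failure and 142 to 317 in wild type, which overlapped (0.38 ± 0.59, adjusted p = 0.847).

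The microtubule plus end proteins Clip1 and Slain2 were called on the second type. Clip1 had 165, 160 and 268 in failure and 41.0 to 80.8 in wild type (1.69 ± 0.33, adjusted p = 0.0362), and its first type probe set 669, 687 and 775 in failure and 601 to 649 in wild type (0.18 ± 0.12, adjusted p = 0.649). Slain2 had 374, 348 and 405 in failure and 130 to 204 in wild type (1.25 ± 0.25, adjusted p = 0.0423). The second Slain2 probe set had 146, 139 and 116 in failure against 53.4 to 77.0 in wild type (1.03 ± 0.31, adjusted p = 0.145). In both genes every probe set kept the failure arrays above wild type. Map4, which stabilises microtubules, had 298, 251 and 266 in failure and 145 to 204 in wild type (0.71 ± 0.20, adjusted p = 0.200). Kif5b was the 1 gene called among 30 tubulins and microtubule motors, 4 of which lay above wild type and 1 below, with a median of 0.00.

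Of 29 nonmuscle actin and myosin genes 1 was called, Myh14, a nonmuscle myosin heavy chain, with 507, 472 and 485 in failure and 273 to 343 in wild type. It rose by 0.65 ± 0.12 (adjusted p = 0.0476). Its relative Myh10 had 154, 144 and 96.8 in failure and 55.1 to 80.3 in wild type (1.07 ± 0.29, adjusted p = 0.109). Failure lay above wild type for 2 members of this list and below for 2.

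Other calls came from membrane and RNA proteins. Plp2, a proteolipid of intracellular membranes, was the gene called on both types. On the first it had 531, 642 and 673 in failure and 353 to 401 in wild type (0.68 ± 0.12, adjusted p = 0.0263). On the second it had 150, 207 and 224 in failure and 77.0 to 97.5 in wild type (1.19 ± 0.20, adjusted p = 0.019). Hypertrophy had medians of 403 and 101, near wild type on both. Clic5, an intracellular chloride channel protein, had 460, 357 and 385 in failure and 137 to 175 in wild type (1.36 ± 0.22, adjusted p = 0.0152). Prkag2, a regulatory subunit of AMP-activated kinase, had 91.6, 103 and 84.1 in failure and 48.2 to 55.6 in wild type (0.85 ± 0.17, adjusted p = 0.0362). Its other probe set had overlapping groups (−0.24 ± 0.21, adjusted p = 0.701). Only the failure arrays of the called Prkag2 probe set reached the median of their array, so it was tested because failure was high. The called probe sets of Plp2, Clic5 and Prkag2 had their lowest failure array clear of the highest wild type array.

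Nsrp1, a splicing regulator of nuclear speckles, had 176, 144 and 173 in failure and 32.7 to 63.0 in wild type (1.91 ± 0.33, adjusted p = 0.019). Apart from the failure arrays, only hypertrophy sample 2 reached its array's median, so the probe set was tested because failure was high. Another Nsrp1 probe set had overlapping groups (0.23 ± 0.34, adjusted p = 0.837). Mbnl2, which shifts splicing in muscle, had 516, 470 and 736 in failure and 182 to 381 in wild type (1.12 ± 0.22, adjusted p = 0.0398). One of its 4 other tested probe sets also did not overlap (0.64 ± 0.49), the others did, and none was called. The zinc finger gene Zfp982 had 365, 340 and 321 in failure and 57.7 to 80.4 in wild type, with every failure array far above the highest wild type array (2.32 ± 0.41, adjusted p = 0.019). The probe set of Zfp982 is of the class that matches a sequence family.

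Smaller calls were Susd2 (0.61), Cdca2 (0.52) and Lrp11 (0.51), with adjusted p of 0.0405, 0.0423 and 0.0423. The other tested probe sets of Cdca2 (0.22 ± 0.28 and 0.02 ± 0.14) and Lrp11 (−0.02 ± 0.09) had overlapping groups. Gm4788, on a probe set of the sequence family class, had 1023, 744 and 647 in failure and 280 to 447 in wild type (1.12 ± 0.21, adjusted p = 0.0476). Beside it, Cfhr2, a complement factor H related gene, had 682, 683 and 479 in failure and 208 to 389 in wild type (1.05 ± 0.21, adjusted p = 0.0538), also on such a probe set. Called probe sets without a single gene name numbered 4, all of them higher, with changes of 0.85 to 3.01.

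Lower in failure were 6 called probe sets, of which Med28 is given above. Hgd, an enzyme of tyrosine breakdown, had 153, 191 and 240 in failure and 418, 330, 406, 437 and 402 in wild type, with hypertrophy at 224 to 378. It fell by 1.05 on the log2 scale (SE 0.17, adjusted p = 0.0225). Rab3gap1, which activates Rab18 and inactivates Rab3, had 548, 602 and 677 in failure and 967 to 1203 in wild type (−0.85 ± 0.15, adjusted p = 0.0237). Dok4, a docking protein of receptor tyrosine kinases, had 599, 873 and 922 in failure and 1320 to 1645 in wild type (−0.88 ± 0.17, adjusted p = 0.0362). The called probe sets of Hgd, Rab3gap1 and Dok4 did not overlap with wild type. The other tested probe sets of Dok4 did, with changes of −0.26 ± 0.13 (adjusted p = 0.432) and, in the opposite direction, 0.15 ± 0.16 (0.747).

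Palb2, a partner of Brca2 in DNA repair, had 426, 370 and 412 in failure and 513 to 628 in wild type (−0.53 ± 0.10, adjusted p = 0.0362). Its other probe set had overlapping groups (−0.15 ± 0.19, adjusted p = 0.799). Tanc2, a scaffold protein, had 14.4, 47.4 and 71.6 in failure and 100 to 189 in wild type (−1.66 ± 0.35, adjusted p = 0.0475). Its failure sample 1 was below the lower limit of 27.5. Over the 30 called genes with a name, 15 had another tested probe set, 20 in all. Of these 20 probe sets 15 had the sign of the called one and 6 kept the failure arrays on the same side of wild type, but only that of Plp2 was called, and 5 had the opposite sign. Over all probe sets tested on the first and second type, 58.5% and 61% of changes were positive. Failure lay above wild type for 8.58% and 9.77% of them and below for 4.67% and 4.01%.

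C/EBP factors, transcription factors of the acute phase and of fat cells, lay above wild type in failure. Of 29 immediate early and C/EBP genes 1 was called, 8 lay above wild type in failure and 2 below, and the median was 0.24. Cebpd had 276, 372 and 158 in failure and 95.0, 114, 91.1, 102 and 99.3 in wild type. It rose by 1.34 ± 0.24 (adjusted p = 0.0305), with failure sample 3 the lowest of its group. Cebpb had 187, 188 and 125 in failure and 81.2, 66.4, 35.7, 50.6 and 61.3 in wild type (1.50 ± 0.36, adjusted p = 0.117). Cebpa and, on the second type, Cebpg had changes of 0.36 ± 0.11 (adjusted p = 0.230) and 0.63 ± 0.23 (0.264). All 4 had failure arrays above wild type. Ier3, a stress-induced survival gene, had 198, 190 and 119 in failure and 48.4 to 112 in wild type (1.15 ± 0.28, adjusted p = 0.117).

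The list of glucocorticoid responsive genes shares Cebpb, Cebpd, Sgk1, Dusp1 and Klf9 with the list above, and Cebpd was its 1 call among 22. Failure lay above wild type for 7 and below for 1, with a median of 0.29. Sgk1, the serum and glucocorticoid kinase, had 266, 285 and 326 in failure and 155 to 235 in wild type (0.54 ± 0.16, adjusted p = 0.218). Ddit4, an inhibitor of mTOR signalling, had 388, 346 and 376 in failure and 211 to 253 in wild type. Its failure arrays were close together, whereas hypertrophy ranged from 159 to 465, and the change of 0.69 ± 0.26 had adjusted p = 0.337 with all arrays and 0.0180 in the fit of 8. The clock gene Per1 had 312, 279 and 173 in failure and 151 to 181 in wild type (0.56 ± 0.20, adjusted p = 0.311).

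The matrix genes as a list had a higher mean in failure samples 1 and 2 than in sample 3. Among 32 extracellular matrix genes 28 changes were positive with a median of 0.38, and 6 genes had all failure arrays above wild type, but none was called with limma. In 21 of them both failure samples 1 and 2 lay above all wild type arrays, and in 6 of these 21 sample 3 did too. Over all genes the counts were 1601 and 821. The mean log2 signal of the 30 members on the first type was 9.04, 9.02 and 8.09 in failure samples 1 to 3 and 7.96 to 8.33 in wild type, so that sample 3 fell within the wild type range. Hypertrophy, at 7.64 to 8.72, overlapped with wild type and with failure sample 3.

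Mgp, matrix Gla protein, an inhibitor of calcification, had 3707, 3688 and 1898 in failure and 1418, 1296, 1100, 1600 and 976 in wild type (1.23 ± 0.25, adjusted p = 0.0538). The elastic fibre genes Mfap5 and Eln had 538, 455 and 266 and 362, 326 and 295 in failure, against 150 to 192 and 149 to 237 in wild type, with changes of 1.26 ± 0.28 (adjusted p = 0.0840) and 0.80 ± 0.19 (0.117). Fbln2, a fibulin of the same fibres, had 547, 460 and 432 in failure and 251 to 320 in wild type (0.75 ± 0.19, adjusted p = 0.125). These 4 genes were called in the fit of 8 arrays, with adjusted p of 0.0200 to 0.0322, and in each failure sample 3 was the lowest of its group but above wild type.

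In other matrix genes sample 3 was at or close to the wild type level. Bgn, the proteoglycan biglycan, had 3779, 3876 and 1262 in failure and 663 to 1199 in wild type (1.61 ± 0.38, adjusted p = 0.117). Postn, periostin, a protein of activated fibroblasts, had 699, 680 and 169 in failure and 96.4 to 204 in wild type (1.79 ± 0.60, adjusted p = 0.273). Col1a1, a chain of type I collagen, had 606, 771 and 140 in failure and 138 to 209 in wild type (1.24 ± 0.45, adjusted p = 0.315). For Postn and Col1a1, 2 failure arrays were far above the highest wild type array and the third was inside the wild type range. Fn1, fibronectin, had 308, 514 and 208 in failure and 110 to 191 in wild type (1.15 ± 0.29, adjusted p = 0.128).

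Fibroblast markers, of which 17 of 20 were tested, moved with the matrix genes, and the lists share 8 genes, among them Mfap5, Postn and Col1a1. Their mean log2 signal over the 15 on the first type was 8.94, 8.96 and 7.99 in failure, 7.72 to 8.70 in hypertrophy and 7.97 to 8.28 in wild type. The median change was 0.34, 2 of 17 lay above wild type on all failure arrays and none was called. Pi16, an adventitial fibroblast protein, had 257, 265 and 185 in failure and 90.4 to 164 in wild type (0.90 ± 0.24, adjusted p = 0.109). The part of fibroblast number in the matrix values was not tested.

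Among 23 genes of the TGF-beta, activin and CCN group 1 was called, 20 changes were positive with a median of 0.33, and failure lay above wild type for 6. Tgfbr1, the type I receptor, had 170, 159 and 196 in failure and 108, 82.3, 100, 123 and 89.3 in wild type, with sample 3 the highest. It rose by 0.80 ± 0.16 (adjusted p = 0.0362). The ligand Tgfb3 had 235, 292 and 167 in failure and 104 to 118 in wild type (1.03 ± 0.25, adjusted p = 0.117, and 0.0188 in the fit of 8 arrays). Ccn2, connective tissue growth factor, a target of TGF-beta and of YAP with TEAD factors, had 1516, 1982 and 1592 in failure and 762, 381, 365, 599 and 311 in wild type. Its failure arrays were close to each other and nearly double the highest wild type array or more, and the change was 1.88 ± 0.39 (adjusted p = 0.0587). In the fit of 8 arrays it was called (0.0180). Smad1, a signal carrier of the BMP branch, had a change of 0.59 ± 0.20 (adjusted p = 0.288), and the activin receptor Acvr2a 0.41 ± 0.12 (0.218). Failure samples 1 and 2 lay above wild type for 14 of the 23, and sample 3 for 6 of those, or 42.9%, against 51.3% over all genes, so that this count does not set the list apart.

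Among 29 matrix proteases and inhibitors failure lay above wild type for 6 and below for 1, with a median of 0.17, and none was called. Mmp23, a membrane-bound metalloproteinase, had 324, 339 and 268 in failure and 155 to 231 in wild type (0.60 ± 0.13, adjusted p = 0.0634). Timp3, a matrix-bound inhibitor, had 554, 542 and 582 in failure and 194 to 401 in wild type (0.94 ± 0.30, adjusted p = 0.259). Plaur, the urokinase receptor, had 140, 85.2 and 128 in failure and 164 to 196 in wild type (−0.60 ± 0.15, adjusted p = 0.136). Among 29 integrin, laminin and focal adhesion genes Vcl, vinculin, had 285, 263 and 223 in failure and 118 to 172 in wild type (0.78 ± 0.23, adjusted p = 0.209), and failure lay above wild type for 4. In the intercalated disc and dystrophin complex, 4 of 25 lay above and 3 below, where 8.7% and 4.51% of all genes did. Of these 25 changes 13 were positive and 12 negative, with a median of 0.04. Jup, plakoglobin, had 371, 360 and 368 in failure and 251 to 292 in wild type (0.44 ± 0.15, adjusted p = 0.262), and Sspn, sarcospan, 395, 431 and 204 in failure and 147 to 203 in wild type (0.87 ± 0.23, adjusted p = 0.155).

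**Figure D4:**
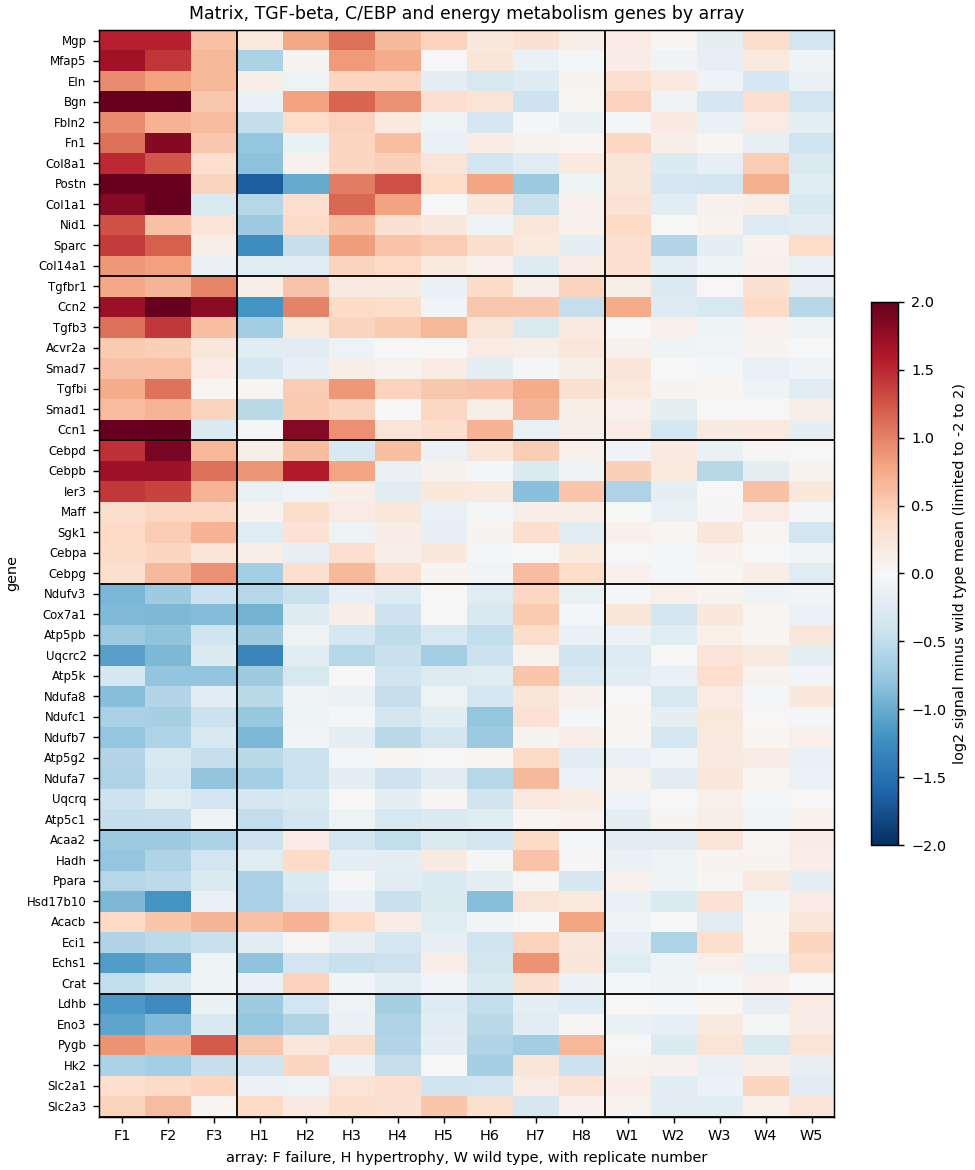
Log2 signal minus the wild type mean (colour, limited to −2 to 2) of single genes, 1 a row, in each failure (F), hypertrophy (H) and wild type (W) array. Lines separate, from the top, matrix genes (Mgp to Col14a1), TGF-beta genes (Tgfbr1 to Ccn1), C/EBP and immediate early genes (Cebpd to Cebpg), the respiratory chain (Ndufv3 to Atp5c1), fatty acid oxidation (Acaa2 to Crat) and glycolysis (Ldhb to Slc2a3). Failure sample 3 is paler than samples 1 and 2 for most matrix genes, as for Col1a1, with 140 against 606 and 771.

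Genes of mitochondrial energy production had mostly negative changes. In the respiratory chain and ATP synthase 59 of 64 tested genes had a negative change, with a median of −0.31, failure lay below wild type for 20 of them (4.51% of all genes tested) and above for none, and none was called with limma. The mean log2 signal over the 63 on the first type was 10.15, 10.22 and 10.37 in failure and 10.35 to 10.73 in wild type, so the groups overlapped slightly. Hypertrophy, at 9.95 to 10.74 with a median of 10.40, spanned both. Under the other settings the median change of the list lay between −0.41 and −0.23. Cox7a1, a muscle subunit of cytochrome oxidase, had 1165, 1152 and 1185 in failure and 2547, 1677, 2498, 2205 and 1988 in wild type. The failure arrays were nearly equal and clear of wild type, but hypertrophy spanned 1116 to 3108, and the change was −0.89 ± 0.23 (adjusted p = 0.150). In the fit of 8 arrays it was called (0.0191). Ndufv3, of complex I, had 648, 745 and 902 in failure and 1160 to 1297 in wild type (−0.68 ± 0.17, adjusted p = 0.133). Atp5pb, of the ATP synthase stalk, had 795, 754 and 994 in failure and 1104 to 1532 in wild type (−0.64 ± 0.19, adjusted p = 0.218), and Ndufc1 had −0.58 ± 0.20 (0.279). These 3 were also called in the fit of 8 arrays.

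Fatty acid uptake and oxidation had 23 negative changes among 30, a median of −0.16, and failure below wild type for 4 and above for 2. Acaa2, the last enzyme of the mitochondrial beta-oxidation cycle, had 1483, 1494 and 1584 in failure and 2119, 2119, 2988, 2503 and 2722 in wild type (−0.70 ± 0.18, adjusted p = 0.150). Hadh, the dehydrogenase before it, had 784, 887 and 1033 in failure and 1220 to 1475 in wild type (−0.58 ± 0.17, adjusted p = 0.218). Ppara, the nuclear receptor that drives these genes, had 199, 206 and 242 in failure and 258 to 333 in wild type (−0.46 ± 0.14, adjusted p = 0.218). All 3 lay below wild type in each failure array. Acacb, whose product blocks fatty acid entry into mitochondria, went the other way, with 345, 385 and 419 in failure and 225 to 308 in wild type (0.54 ± 0.21, adjusted p = 0.284).

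Creatine kinase and adenylate phosphotransfer genes had 11 negative changes among 14, with a median of −0.22. Ckm, muscle creatine kinase, had 102, 76.7 and 121 in failure and 160 to 275 in wild type (−1.13 ± 0.28, adjusted p = 0.130), on a probe set of the sequence family class, and was called in the fit of 8 arrays (0.0257). In the breakdown of amino acids and ketone bodies, 1 of 27 was called lower, Hgd, and 1 higher, Mtap, while failure lay below wild type for 6 and above for 1. Ivd, of leucine breakdown, had 314, 294 and 353 in failure and 428 to 470 in wild type (−0.47 ± 0.12, adjusted p = 0.140). Bckdhb, of the branched-chain ketoacid dehydrogenase, had 110, 116 and 148 in failure and 170 to 224 in wild type (−0.73 ± 0.24, adjusted p = 0.262), and Bcat2, the branched-chain aminotransferase, 92.8, 194 and 207 in failure and 239 to 350 in wild type (−0.87 ± 0.30, adjusted p = 0.279). These 3 branched-chain enzymes lay below wild type in each failure array.

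In glycolysis and glucose transport failure lay below wild type for 3 of 26 and above for 1, and the median was −0.03. Hk2, hexokinase of muscle, had 504, 487 and 572 in failure and 703 to 863 in wild type (−0.59 ± 0.20, adjusted p = 0.279), and Eno3, muscle enolase, 1131, 1281 and 1893 in failure and 2091 to 2666 in wild type (−0.75 ± 0.19, adjusted p = 0.133). Pygb, the brain and fetal form of glycogen phosphorylase, had 766, 677 and 958 in failure and 336 to 497 in wild type (0.95 ± 0.29, adjusted p = 0.230). For Ldhb, the heart form of lactate dehydrogenase, failure samples 1 and 2 had 1461 and 1343, far below the 2916 to 3641 of wild type, and sample 3 had 2972 (−0.85 ± 0.21, adjusted p = 0.117). In the TCA cycle 1 of 28 lay below wild type, citrate synthase Cs, with 1103, 1219 and 1587 in failure and 1600 to 1870 in wild type (−0.43 ± 0.16, adjusted p = 0.337). Of 45 genes of mitochondrial ribosomes and import 37 had a negative change, with a median of −0.16. Mrpl42 had 67.5, 64.0 and 81.9 in failure and 99.3 to 121 in wild type (−0.66 ± 0.15, adjusted p = 0.117). Of 18 genes of mitochondrial biogenesis failure lay below wild type for 2, one of them the regulator Nrf1, with 432, 426 and 303 in failure and 482 to 733 in wild type (−0.66 ± 0.18, adjusted p = 0.109).

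Among genes of protein synthesis and folding, translation factors had 8 of 28 with failure above wild type and none below. The median was 0.09 and none was called with limma. Their mean log2 signal was 8.51, 8.60 and 8.57 in failure and 8.21 to 8.42 in wild type, without overlap. Hypertrophy, at 7.96 to 8.49, overlapped with wild type. Eif4ebp1, a brake on cap-dependent translation that mTOR releases, had 150, 153 and 144 in failure and 64.5 to 93.7 in wild type (0.87 ± 0.19, adjusted p = 0.0823). Eif3a had 271, 278 and 285 in failure and 155 to 205 in wild type (0.60 ± 0.18, adjusted p = 0.218), and Pabpc1, the poly(A) binding protein, 574, 538 and 494 in failure and 324 to 391 in wild type (0.57 ± 0.16, adjusted p = 0.199). These 3 had narrow failure groups, and were called in the fit of 8 arrays. For cytosolic ribosomal proteins failure lay on 1 side of wild type for 0 of 26, and in limma 0 were called, with a median of 0.01.

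Heat shock proteins and chaperones had 6 of 34 above wild type and 1 below, where 8.7% and 4.51% of all genes were. Hspb7, a small heat shock protein of the heart, had 2605, 2728 and 3428 in failure and 1608 to 2351 in wild type (0.55 ± 0.24, adjusted p = 0.364). Fkbp4, a cochaperone of steroid receptors, had 359, 406 and 386 in failure and 700, 465, 820, 785 and 730 in wild type (−0.84 ± 0.25, adjusted p = 0.219), on a probe set of the sequence family class. In the unfolded protein response, 5 of 22 lay above wild type, among them the sensors Atf6, with 112, 112 and 134 in failure and 74.4 to 96.7 in wild type (0.46 ± 0.12, adjusted p = 0.0982), and Ern1 (0.36 ± 0.15, adjusted p = 0.336). Of 34 proteasome subunits 6 lay above wild type and 1 below, Psme1, an interferon-inducible activator, with 120, 113 and 128 in failure and 152 to 285 in wild type (−0.94 ± 0.28, adjusted p = 0.218). None of these lists held a call, and over all genes 0.233% were called.

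The ubiquitin ligase Fbxo32, a marker of muscle atrophy, had 299, 272 and 195 in failure and 159 to 240 in wild type, which overlapped (0.46 ± 0.21, adjusted p = 0.404). In the list of antioxidant enzymes and metallothioneins, 4 of 32 lay above wild type and 4 below, where 8.7% and 4.51% of all genes did. Mt1 had 1814, 2103 and 1750 in failure and 886 to 1353 in wild type (0.80 ± 0.26, adjusted p = 0.258), while Mt3 had 708, 812 and 736 in failure and 982 to 1101 in wild type (−0.48 ± 0.16, adjusted p = 0.275). Sod1, the cytosolic superoxide dismutase, had 1431, 1425 and 1334 in failure and 1756 to 2060 in wild type (−0.43 ± 0.18, adjusted p = 0.400). Among 20 hypoxia and angiogenesis genes 5 lay above wild type and 1 below, with Epas1, the endothelial hypoxia factor, at 160, 139 and 192 in failure and 110 to 134 in wild type (0.46 ± 0.17, adjusted p = 0.319).

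Immune genes held no call, where 0.233% of all genes were called. In the complement and acute phase list 5 of 21 lay above wild type and 1 below. Clu, clusterin, a secreted chaperone, had 1616, 1759 and 1372 in failure and 751, 676, 711, 732 and 916 in wild type (1.06 ± 0.21, adjusted p = 0.0538, and 0.0135 in the fit of 8 arrays). Cp, ceruloplasmin, had 257, 210 and 288 in failure and 145 to 174 in wild type (0.62 ± 0.15, adjusted p = 0.117). Clu and Cp were clear of wild type on each failure array. Of 29 antigen presentation and interferon genes failure lay above wild type for 0 and below for 2, Psme1 and Stat2, and of 30 cytokine genes above for 2 and below for 1, the chemokine Ccl3 (−0.46 ± 0.15, adjusted p = 0.262). Macrophage and neutrophil markers had 3 of 20 above wild type (8.7% of all genes), with 14 positive and 6 negative changes and a median of 0.14. Itgam, an integrin of these cells, had 73.9, 68.0 and 55.8 in failure and 68.9 to 153 in wild type (−0.63 ± 0.22, adjusted p = 0.295). C1qb, a complement gene of macrophages, had 223, 199 and 114 in failure and 53.0 to 157 in wild type (0.87 ± 0.37, adjusted p = 0.410), and both genes had overlapping groups.

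Markers of other cell types in the ventricle were examined as lists. Over all genes, failure lay above wild type for 8.7% and below for 4.51%. Endothelial markers had 5 of 14 with failure above wild type, among them Tie1, a receptor of the angiopoietin system, at 149, 128 and 155 in failure and 94.4 to 117 in wild type (0.45 ± 0.12, adjusted p = 0.149), and Vwf, von Willebrand factor, at 205, 185 and 329 in failure and 89.7 to 166 in wild type (0.88 ± 0.25, adjusted p = 0.199). Of the 14 endothelial changes 8 were positive and 6 negative, down to −0.39. The list's median was 0.07, and −0.02 to 0.20 under the other settings. Its mean log2 signals overlapped between groups. Atrial and conduction markers, which include Nppa and Myl7, had 3 of 11 above wild type. Of the 11 changes 6 were positive and 5 negative, down to −0.61. Their mean log2 signal was 8.30, 8.11 and 8.69 in failure and 7.93 to 8.27 in wild type, highest in sample 3. Erythroid markers, of which 3 of 11 were tested, also had their highest mean in sample 3. It was 10.44 against 9.46 and 9.61 in the other failure samples and 9.51 to 9.81 in wild type. Of the 3 changes 2 were positive and 1 negative, and the negative 1 (−0.21) had all failure arrays below wild type. The globin gene Hba-a1 had 3768, 5014 and 10048 in failure and 4356 to 6339 in wild type. Whether the amount of atrial tissue or blood in a sample bears on the results was not tested.

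Schwann cell and neuron markers had 7 of 7 positive changes, 1 of them without overlap, Pmp22, a myelin protein that fibroblasts also make, with 190, 193 and 80.4 in failure and 58.0 to 69.7 in wild type (1.18 ± 0.33, adjusted p = 0.176). Smooth muscle and pericyte markers had 1 of 14 above wild type, Pdgfrb (0.42 ± 0.17, adjusted p = 0.395). Adipocyte markers had 1 of 6 above, Thrsp (0.43 ± 0.26, adjusted p = 0.617). Lymphocyte and mast cell markers had 2 of 11 below wild type, Cma1 and Ms4a1, a B cell surface gene (−0.48 ± 0.20, adjusted p = 0.417), and skeletal muscle markers 2 of 11, Myh4 (−0.58 ± 0.21, adjusted p = 0.335) and Tnnt1 (−0.48 ± 0.27, adjusted p = 0.565). None of the 10 lists of cell type markers held a called gene, and over all genes only 0.233% were called.

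Hopx, a homeodomain protein that restrains serum response factor in the heart, had 595, 534 and 1088 in failure and 1465, 1463, 1944, 1550 and 1703 in wild type (−1.20 ± 0.24, adjusted p = 0.0538). Vgll4, a cofactor of TEAD factors, had 238, 215 and 205 in failure, 186 to 351 in hypertrophy and 117 to 162 in wild type (0.65 ± 0.18, adjusted p = 0.117). Both transgenic groups lay above wild type for Vgll4, whereas for Hopx hypertrophy overlapped with both. In the list of cardiac transcription factors and the calcineurin pathway 4 of 39 lay above and 2 below, near the shares over all genes (8.7% and 4.51%), and in limma 0 were called there. Rcan2, a calcineurin regulator, had 808, 941 and 1150 in failure and 530 to 759 in wild type (0.57 ± 0.22, adjusted p = 0.296). Rb1, the retinoblastoma gene, had 152, 218 and 223 in failure and 324 to 398 in wild type (−0.94 ± 0.29, adjusted p = 0.230), on a probe set of the sequence family class, while 3 of 30 cell cycle genes lay above wild type, such as Ccna2, cyclin A (0.39 ± 0.14, adjusted p = 0.320). Among MAP kinase genes Styx was the 1 call of 32, and Dusp4, a phosphatase that turns off ERK, had 268, 199 and 157 in failure and 277 to 420 in wild type (−0.66 ± 0.18, adjusted p = 0.109).

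In the insulin, IGF and mTOR list 4 of 32 lay above wild type and 1 below, with Igfbp6, an IGF-II binding protein, at 290, 332 and 212 in failure and 153 to 203 in wild type (0.72 ± 0.17, adjusted p = 0.117). Of 24 apoptosis regulators 4 lay above, among them Dap (0.48 ± 0.14, adjusted p = 0.199). Among 28 Wnt and Notch genes 1 lay above wild type, the ligand Dll1 (0.24 ± 0.11, adjusted p = 0.448), of 17 clock genes 1, Tef (0.32 ± 0.16, adjusted p = 0.477), and of 24 genes of lipid synthesis 1, Sc5d (0.28 ± 0.15, adjusted p = 0.555). Of 29 ubiquitin ligase, autophagy and lysosome genes 4 lay above and 1 below. Over all genes, 8.7% lay above wild type and 4.51% below. In limma, 43 of the 53 lists held 0 called genes, where 22 of all 9440 genes (0.233%) were called.

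**Figure D5:**
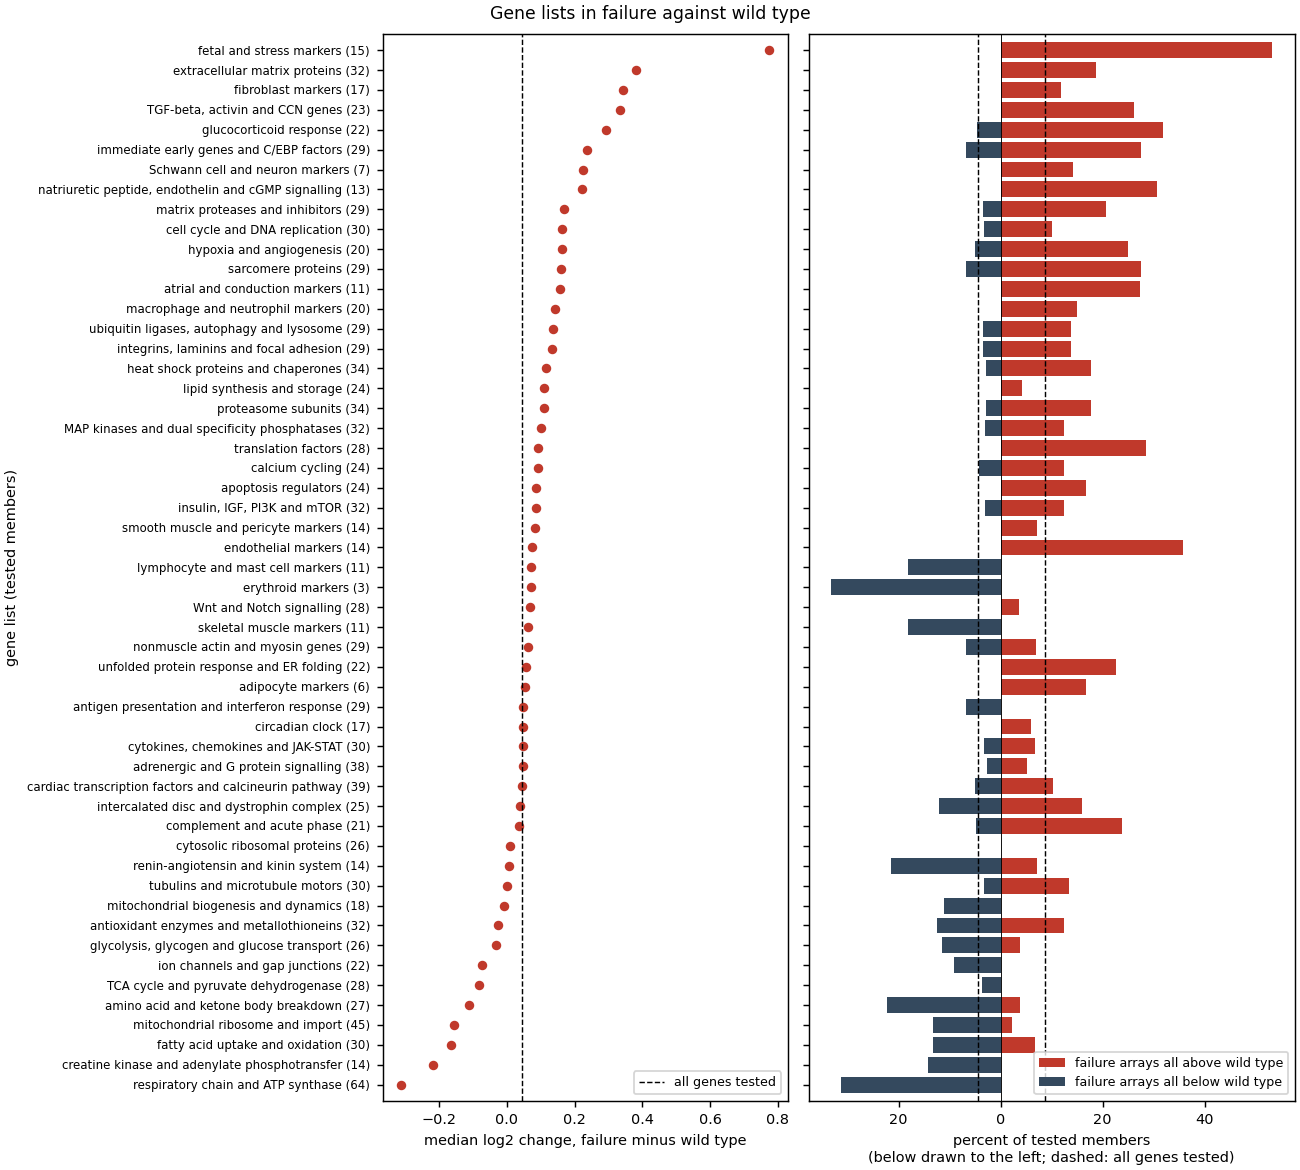
Left, median log2 change of failure minus wild type over the tested members of each gene list (points), with the median over all 9440 genes dashed at 0.04. Right, percent of each list's members whose failure arrays all lay above (red) or all below (blue) the wild type arrays, with the shares over all genes, 8.7% and 4.51%, dashed. The fetal and stress markers are at the top with a median of 0.77 and the respiratory chain at the bottom with −0.31.

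The probe sets next below the threshold add genes outside the lists. On the first type the 10 of smallest p with a gene name had adjusted p of 0.0538 to 0.0752. Mkln1, muskelin, had 165, 150 and 69.5 in failure and 209 to 349 in wild type (−1.24 ± 0.24). Pkp4, a plakophilin of cell junctions, had 190, 207 and 202 in failure and 105 to 133 in wild type (0.74 ± 0.15). Sesn1, a stress-induced sestrin, had 251, 276 and 260 in failure and 107 to 151 in wild type (0.92 ± 0.19), and Rtn2, a reticulon, 110, 110 and 105 in failure and 155 to 186 in wild type (−0.64 ± 0.13). The failure arrays of Pkp4, Sesn1 and Rtn2 were close to each other and clear of wild type. The others of the 10 were Cfhr2, Mgp, Clu, Hopx, Ccn2 and the brighter Myh7 probe set.

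On the second type the 10 had adjusted p of 0.0584 to 0.0673. Arhgef12 had 238, 217 and 210 in failure and 115 to 132 in wild type (0.83 ± 0.18). Acp5, a phosphatase of macrophages and osteoclasts, had 821, 1055 and 769 in failure and 379 to 557 in wild type (0.85 ± 0.19). Ppp1r10, a nuclear subunit of protein phosphatase 1, had 51.5, 49.7 and 56.7 in failure and 73.3 to 96.4 in wild type (−0.72 ± 0.16). These 3 did not overlap with wild type. The others were Rasgef1a (0.57), Krt77 (0.51), Zfp784 (0.53), Slc45a4 (−0.70), Mmp23 (0.60), Slco3a1 (0.48) and Samd4 (1.47). For Krt77 and Zfp784 hypertrophy was also above wild type, at 175 to 227 against 122 to 154 and at 158 to 220 against 122 to 156.

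Among genes not called, whose groups did not overlap and whose lower group was above the lower limit, the largest changes included Gm3134 (2.11 ± 0.83, adjusted p = 0.297), Slc4a11, a membrane transporter (1.54 ± 0.87, adjusted p = 0.490), Gm1070 (1.50 ± 0.98, adjusted p = 0.561) and Fstl1, a secreted follistatin-like protein (1.45 ± 0.40, adjusted p = 0.176). Hipk3, a kinase, had 137, 108 and 198 in failure and 44.8 to 89.9 in wild type (1.31 ± 0.40, adjusted p = 0.152). Lower in failure were Katnal2, a relative of the microtubule-severing katanin (−1.33 ± 0.48, adjusted p = 0.241), Krtcap3 (−0.99 ± 0.23, adjusted p = 0.0673), Mtrf1l, a release factor of mitochondria (−0.99 ± 0.27, adjusted p = 0.176), and Pip4p1, a lipid phosphatase (−0.99 ± 0.49, adjusted p = 0.425). Their hypertrophy arrays had wide ranges, as for Slc4a11, with 1 to 543 in hypertrophy.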

How the data were processed

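Total RNA of mouse cardiac ventricle was measured on 2 Affymetrix array types. Each deposited value is a linear intensity of a probe set. What the authors did to obtain it was not stated in the labels. Values below the 20th percentile of the type (39.5 and 27.5) were raised to it and taken to log2. Per type, 1 model over the 16 arrays was fitted (limma 3.58.1, R 4.3.3), with failure, hypertrophy and wild type sharing 1 estimate of the spread, on probe sets that reached the array median in at least 3 arrays (6980 of 12488 and 7004 of 12477), with Benjamini-Hochberg adjustment per type. The number of arrays limits the precision.

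GEO's platform annotation gave 1 symbol to 10833 and 10581 probe sets, several to 396 and 178 and none to 1193 and 1652, and 12 and 20 symbols were updated from RefSeq. In counts over genes, the probe set with the highest mean signal stands for a gene, taken from the first type if tested there. Named are 8 genes chosen for this model (Agtr1b was not tested), the called probe sets, the 10 of smallest p not called on each type, the leading members of 53 gene lists and the largest changes without overlap. Cebpg, Smad1 and Ndufc1 were chosen after their values were seen. The genes and lists were chosen with earlier results of these data known. On simulated data with 200 changed probe sets a log2 change of 1 was recovered for 89.5% (first type) and 77.5% (second type), and 6.28% and 4.91% of the calls were false. At a change of 2, 8.80% and 6.13% were. The simulated probe sets varied independently of each other, without deviations shared by an array, and all 200 changed equally. Such shares need not hold for the real arrays, where leaving out 1 array moved the counts of calls. Alternatives changed the scaling, lower limit, filter, variance model, arrays and covariates.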

Additional observations from a re-analysis of the deposited data

Results flagged for a closer look

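Against hypertrophy, failure differed past the threshold for Ralgapa2 (1.55 on the log2 scale) and Mtap (0.93), both on the second type with adjusted p = 0.0441 in limma. Both calls were lost when any single failure sample was left out, and in the other settings given above.

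Among 276 probe sets of named genes, 16 had 1 of the 5 wild type arrays far from the rest, where chance gives about 1 in 20. Wild type sample 2 was the lowest for Fkbp4 (465), Ncf1 (168), Psmd7 (316), Mtap (117) and Susd2 (194) and the highest for Dgat1 (326) and Myog (532). Wild type sample 1 was the highest for Hrc (2127), Styx (31.0), Myh10 (80.3) and Fbxo32 (240.2). For Styx the other wild type arrays had all been raised to the lower limit of 27.5, so that sample 1 stands apart there only through that limit. Wild type sample 4 was the lowest for Sesn1 (107), Krt77 (122) and Mmp23 (155). Sample 3 was the lowest for Uchl1 (422), and sample 5 the highest for Kif5b (126).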

How the results depend on the processing

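Counts are given for the first and the second type. Against wild type, where 10 and 25 were called, quantile normalisation gave 30 on the first type, median scaling 33 and 40, no filter 22 and 55, array weights 1002 and 428, the 8 arrays alone 122 and 193, leaving out hypertrophy samples 6 and 7 34 and 70, and the Actb covariate 42 and 81. A lower limit at the 5th percentile gave 6 and adjustment over both types 17 on the first, and the Xist covariate gave 9 on the second. Leaving out 1 array at a time gave 0 to 51 and 4 to 79. Of the called probe sets, 0 of 10 and 4 of 25 (Styx, Ralgapa2, Slc13a1 and 1 without a name) kept their call without each array in turn. Against hypertrophy, where 0 and 2 were called, no filter gave 10 and 12 and array weights 274 and 30. On the second type the 2 groups alone, leaving out hypertrophy samples 6 and 7, the Actb covariate and adjustment over both types each gave 0, and the Xist covariate 1. Leaving out 1 array gave 0 to 24 and 0 to 13. The cause of these shifts was not tested.

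The failure and wild type samples share replicate numbers, but the deviations of same-numbered samples correlated at -0.19 to -0.06, so the numbers were not taken as pairs. With the replicate block 3 and 6 were called against wild type, and 0 on the second type against hypertrophy.

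Among the named genes, signs turned for the 4 below, none of them called. Atp2a2 was at -0.0061 under quantile normalisation and -0.017 under median scaling, and its second type probe set at 0.090 with the Actb covariate. Retn was at -0.018 and Hba-a1 at -0.024 under median scaling, and Hba-a1 at -0.14 with array weights. Leaving out 1 array put Hba-a1 at -0.33 to 0.37 and Ucp1 at -0.46 to 0.26. The medians of some lists also changed sign between settings. Such medians lay between -0.0016 and 0.32 for translation factors, -0.060 and 0.24 for complement, and -0.052 and 0.25 for the intercalated disc list. For the fetal and stress markers (0.67 to 0.90) and the matrix genes (0.22 to 0.74) the sign held.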
